A study of Caenorhabditis elegans with 4 samples.

Results

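The regions described here are the 1100 rows of the authors' series-level list of REC-8 binding sites that lie on chromosome II of Caenorhabditis elegans, out of 7283 regions in the whole list. They were chosen by chromosome name alone. The series held 2 chromatin immunoprecipitation (ChIP) libraries made with a purified polyclonal rabbit antibody that recognises REC-8 and 2 input libraries of chromatin that was not precipitated. All 4 came from adult hermaphrodites with a germline, of the strain fem-2(b245) with the genotype fem-2(b245)III, at 20 °C, so no wild-type or REC-8-deficient animals stood against them. Their stage is given as young adult in the labels and as gravid in the growth protocol. Each REC-8 library had a peak list of its own, with 412 peaks of replicate 1 and 555 of replicate 2 on chromosome II, and no list of an input library was used here. Whether the replicates were separate cultures is not labelled, so their spread may be technical.

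REC-8 is a kleisin, the subunit that closes the ring of the cohesin complex around sister chromatids in germ cells. In meiosis, cohesin with REC-8 helps to build the chromosome axis on which homologous chromosomes pair and recombine, and separase cuts it to let chromosomes part. The gene fem-2 codes for a phosphatase of the male sex-determination pathway, and b245 is known as a temperature-sensitive allele. Chromosomes of C. elegans are holocentric, and on the autosomes a gene-dense centre lies between arms rich in repeats and crossovers. The pairing centre of chromosome II, where the zinc-finger protein ZIM-1 binds, is known to lie toward its left end. The extracts were made from whole animals, so a peak averages over germ cells of all stages and over the soma.

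The left part of chromosome II held fewer REC-8 regions than the centre or the right part, in the series-level list and in both replicates. Cut into 3 equal parts of 5.09 Mb at 5087820 and 10175640 (build WS220), the chromosome had 228 regions in the left part, 440 in the centre and 432 in the right part. These are 20.7% (95% Wilson interval 18.4 to 23.2%), 40.0% (37.1 to 42.9%) and 39.3% (36.4 to 42.2%) of the 1100, or 44.8, 86.5 and 84.9 regions per Mb. The regions covered 1.81% of the bases of the left part, 3.50% of the centre and 3.87% of the right part. The intervals cover counting error only, and the read depth behind the lists is unknown.

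Both replicates had the same order of the left part against the others in their own lists. Replicate 1 had 88 peaks in the left part, 149 in the centre and 175 in the right part, and replicate 2 had 104, 228 and 223. Per Mb this gave 18.9 ± 2.22 peaks in the left part, 37.0 ± 10.98 in the centre and 39.1 ± 6.67 in the right part (SD, n = 2 replicates). The left values, 17.3 and 20.4 per Mb, did not overlap the centre values, 29.3 and 44.8, or the right values, 34.4 and 43.8, whereas those of the centre and the right part did overlap. Within each library the left part lay below both others. The parts are measured in the same libraries, and exact sign flips over 2 such pairs cannot give a two-sided p below 0.5, so no test was made.

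**Figure D1:**
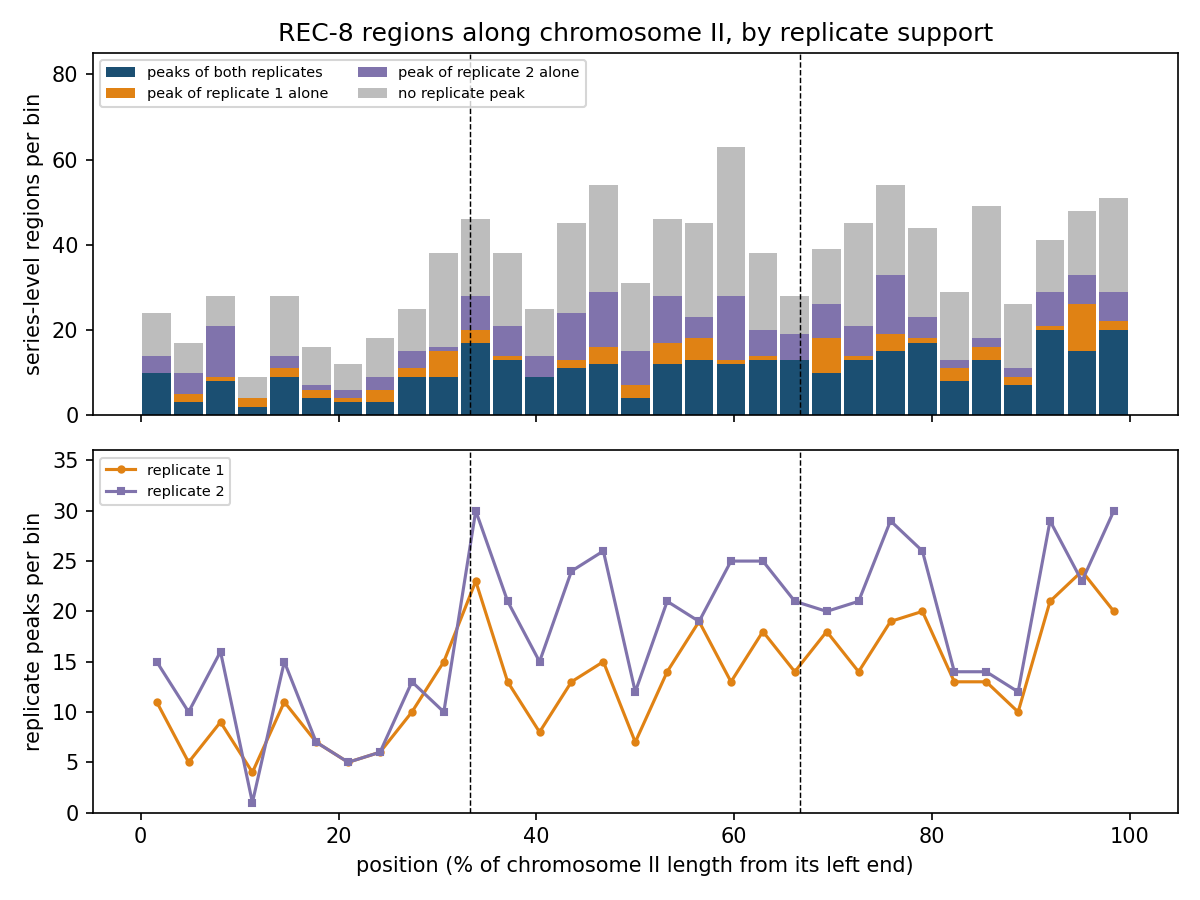
The upper panel stacks the series-level REC-8 regions of chromosome II in 31 equal bins by their overlap with replicate peaks, and the lower panel gives the peaks of each replicate in the same bins. Position is in percent of chromosome length and dashed lines mark the 3 equal parts; the 9 leftmost bins hold 9 to 28 regions and the other 22 bins 25 to 63.

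The step lay near the inner edge of the left part rather than at its outer end. In 31 bins of about 500 kb, the 9 leftmost bins, up to 4431327, held 177 regions in all, with 9 to 28 in a bin and a mean of 39.9 ± 14.0 per Mb (SD over 9 bins). The other 22 bins held 25 to 63 regions, with a mean of 85.2 ± 20.1 per Mb (SD over 22 bins). This division was chosen after the values were seen and is a description. Replicate peaks followed it in part: the 9 bins had 4 to 11 peaks of replicate 1 and 1 to 16 of replicate 2, and the other 22 had 7 to 24 and 10 to 30. The sparsest bin, 1477110 to 1969479, held 9 regions, of which 2 were met by peaks of both replicates. The densest bin, 8862655 to 9355024 in the centre, held 63 regions, of which 12 were met by both. Of the regions of that densest bin, 35 of 63 had no replicate peak at all, against 45.4% of all regions on chromosome II.

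By its share of its own chromosome, the left part of II ranked lowest of the 18 parts of the 6 nuclear chromosomes in each of the 3 lists. It held 20.7% of its chromosome's series-level regions, against 27.4 to 41.6% in the other 17 parts. In replicate 1 it held 21.4%, against 27.9 to 42.5%, and in replicate 2 it held 18.7%, against 23.9 to 45.9%. Per Mb, the left part of II had 44.8 series-level regions, against 43.7 in the right part of V, the 1 part that was sparser. In the replicate lists no part had fewer peaks per Mb than the left part of II, but parts of V came close. Replicate 1 had 17.3 per Mb in the left part of II and 17.8 in both the left and the right part of V. Replicate 2 had 20.4 in the left part of II and 20.9 in the right part of V. The right part of II held the highest share of any right part in the series-level list, 39.3%, against 27.4 to 37.1% on the other 5 nuclear chromosomes. Shares within a chromosome depend on each other, so the low left share raises this one. Per Mb, the right part of II had 84.9 regions, fewer than the 99.5 in the right part of III. The right parts of I, IV, V and X had fewer per Mb than that of II. No test can call these ranks, because 1 chromosome against 5 cannot give an exact permutation p below 0.167.

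**Figure D2:**
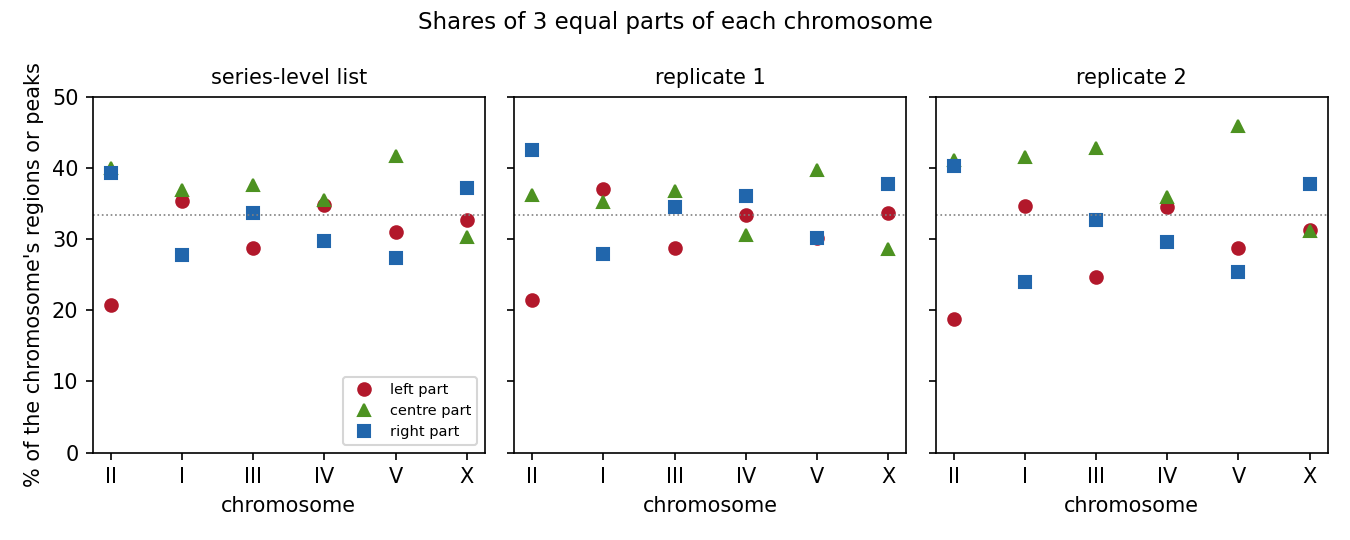
Each point is the share of a chromosome's regions or peaks that lies in its left, centre or right part, for the series-level list and for each replicate, with a dotted line at equal shares. The left part of chromosome II is the lowest point of each panel, at 20.7%, 21.4% and 18.7%.

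In density, score and width, chromosome II lay within the range of the other nuclear chromosomes. It carried 72.1 regions per Mb, against 72.8 over the other 5 nuclear chromosomes together and 53.2 to 98.5 among them. Its median series-level score was 7.86 and its median width 293 bp, and the other nuclear chromosomes together had the same medians. The score is the authors' own, its scale is not stated, and a higher score is taken here to mark a stronger peak. The scores on II ran from 1.47 to 184.75 (quartiles 4.59 and 17.6), and the widths from 146 to 11373 bp (quartiles 201 and 441 bp).

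Of the 1100 regions, 327 (29.7%, 95% Wilson interval 27.1 to 32.5%) overlapped peaks of both replicates by at least 1 bp, against 29.1% of the whole series-level list. A further 82 (7.45%) met a peak of replicate 1 alone and 192 (17.5%) a peak of replicate 2 alone, against 7.65% and 18.6% of the whole list. In all, 601 regions (54.6%, interval 51.7 to 57.6%) met at least 1 replicate peak, against 55.4% of the whole list, and 499 met none. These shares lie near those of the whole list. The 3 lists describe the same libraries, so overlap with the replicate lists is not independent evidence of binding.

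Support climbed steeply with score. Both replicates met 4, 5 and 66 of 275 regions in the first, the second and the third score quartile. In the highest quartile, from a score of 17.63 upwards, 252 of 275 (91.6%, 95% Wilson interval 87.8 to 94.4%) met both replicates and 1 met none. All 110 regions of the highest decile, from 46.68 upwards, met both, while 1 of the 110 in the lowest decile did. Between these ends, peaks of 1 replicate were frequent: in the seventh decile, 46 regions met replicate 2 alone, 16 met replicate 1 alone, 29 met both and 19 met neither. The median score was 31.7 for regions met by both replicates, 8.90 and 9.21 for those met by replicate 1 or 2 alone, and 4.86 for those met by neither. The lowest score on II was 50.12 in the list of replicate 1 and 50.24 in that of replicate 2. Weaker replicate signal is not listed, so a region without a replicate peak is not thereby shown to be absent from the replicates. Shares by score for the whole list are not given here, so the climb is not particular to chromosome II.

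**Figure D3:**
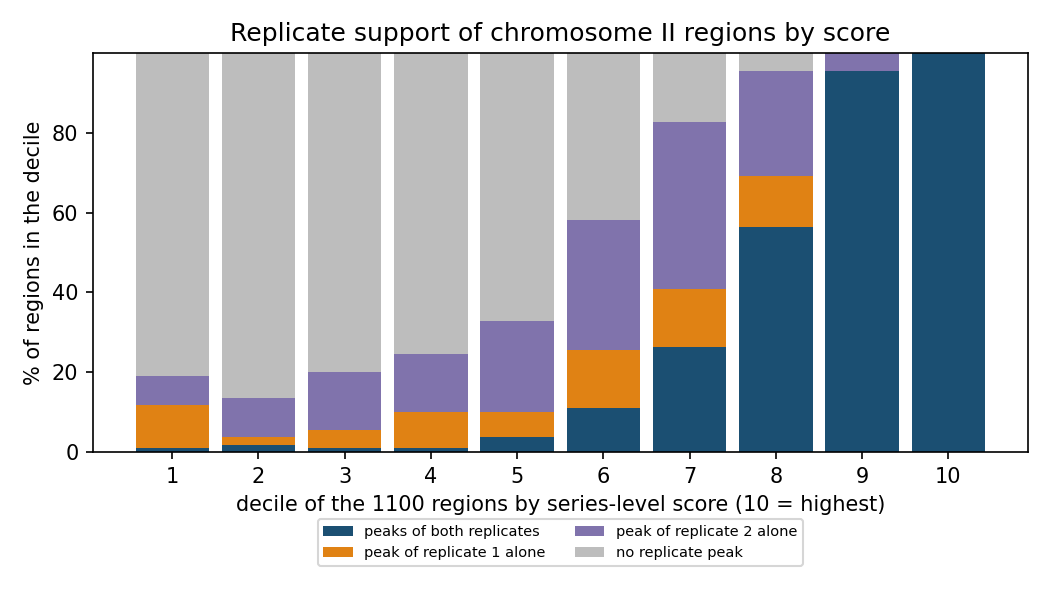
Each bar is 110 chromosome II regions, ordered by series-level score, divided by overlap of at least 1 bp with the peaks of both, 1 or neither replicate. Regions met by both replicates make up 0.909% of the lowest decile, 56.4% of the eighth and all of the highest.

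A few regions went against this order. The highest-scoring region without a replicate peak was 3682813 to 3683069 in the left part, with a score of 18.73, and the next were 10820019 to 10820265 (14.9) and 8769451 to 8769661 (14.72). At the other end, the 168-bp region 9283120 to 9283287 had a score of only 2.24, yet it met peaks with scores of 274.88 in replicate 1 and 700.05 in replicate 2. Its neighbour on the list started 449 bp away, had a higher series-level score and carried the same score in each replicate. The low-scoring region thus probably shared its replicate peaks with a stronger neighbour, and it is not a clear exception to the order. These regions were named after their values were seen. Scores of the replicate lists have another scale than series-level scores, and the values are not compared between lists.

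Wider regions scored higher, as a relation across the 1100 regions of 1 chromosome (Spearman's rho 0.657, Pearson's r 0.391). Among the 327 regions met by both replicates the relation was weaker (rho 0.299, r 0.206). Support went with both score and width, so the selection of these 327 bears on the lower values, and its effect was not tested. Regions are not independent replicates, and both values come from the same reads. The median width was 496 bp for regions met by both replicates, 336 and 293 bp for those met by replicate 1 or 2 alone, and 206 bp for those met by neither. In the 327 regions, the replicate scores rose with each other (rho 0.716, r 0.851). The series-level score rose with the score of replicate 1 (rho 0.775) and of replicate 2 (rho 0.759). A region took the highest score among the replicate peaks it met, so neighbouring regions under the same peak entered with the same score. Scores of exactly 3100, which recur in the replicate lists, entered these values too.

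**Figure D4:**
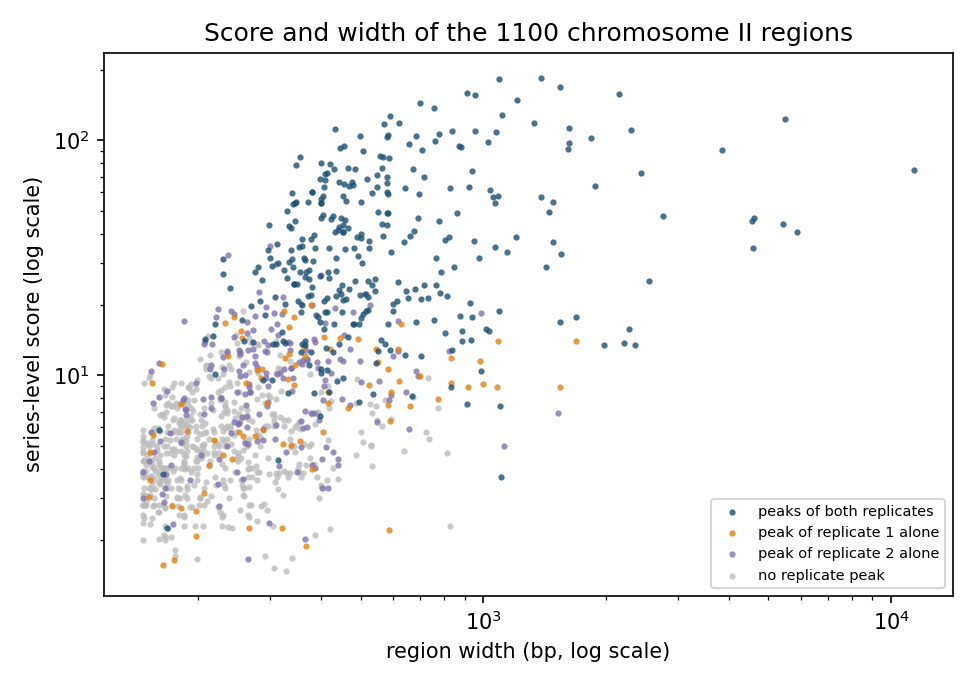
Each point is 1 of the 1100 chromosome II regions, with its width in bp and its series-level score on log axes, coloured by overlap with replicate peaks. Regions met by both replicates (median 496 bp, score 31.7) lie above and to the right of those met by neither (median 206 bp, score 4.86).

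Where 1 series-level region met 1 replicate peak and nothing else, the positions were close. The midpoints lay a median of 32.0 bp apart in the 358 such pairs of replicate 1 and 40.0 bp apart in the 441 pairs of replicate 2. The replicate peak was 1.04 and 1.05 times as wide as the region at the median. Single peaks were also split in the series-level list: 18 peaks of replicate 1 and 21 of replicate 2 covered at least 2 regions, and up to 4.

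Regions with the highest scores lay in all 3 parts. The left part, with 20.7% of the regions, held 4 of the 10 highest scores, and the centre and the right part held 3 each. Of these 4, the regions that start at 4684040 and 5055068 lay to the right of the 9 sparser leftmost bins, which end at 4431327. In the left part 30 of 228 regions (13.2%, 95% Wilson interval 9.37 to 18.2%) were in the highest decile by score, in the centre 35 of 440 (7.95%, 5.77 to 10.9%) and in the right part 45 of 432 (10.4%, 7.88 to 13.7%). Per Mb these were 5.90, 6.88 and 8.84 regions, again lowest in the left part, and the intervals of the shares overlapped. The median scores were 8.05 in the left part, 7.18 in the centre and 8.84 in the right part, and the median widths 293, 283 and 307 bp, with quartiles that overlapped in every pair. Shares of regions with a score above the chromosome's median were 51.3% in the left part (44.9 to 57.7%), 45.7% in the centre (41.1 to 50.4%) and 53.2% in the right part (48.5 to 57.9%).

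Support from both replicates had overlapping intervals in the 3 parts. It reached 28.1% of the regions in the left part (95% Wilson interval 22.6 to 34.2%), 27.7% in the centre (23.8 to 32.1%) and 32.6% in the right part (28.4 to 37.2%). Regions met by 1 replicate alone were less even. In the left part 37 regions met replicate 2 alone and 22 met replicate 1 alone, in the centre 91 and 24, and in the right part 64 and 36. The centre thus had the largest share met by replicate 2 alone, 20.7% (17.2 to 24.7%), against 16.2% (12.0 to 21.6%) in the left part and 14.8% (11.8 to 18.5%) in the right part, with intervals that overlapped. The longer list of replicate 2 bears on all of these counts, and read depth was not tested.

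The highest score on the chromosome, 184.75, belonged to a 1386-bp region in the centre, 8459683 to 8461068, which ranked 9 in the whole list. It scored 2953.56 in replicate 1 and 2180.75 in replicate 2. Next came 9633632 to 9634721 with 182.48, which reached 3100 in replicate 1 and 3101.91 in replicate 2, and 9201617 to 9203154 with 168.66, which reached 3100 in both. A score of exactly 3100 recurs in the replicate lists, so the strongest peaks cannot be ranked by it. These 3 regions all lay in the centre, between 55.4% and 63.1% of the chromosome's length.

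The left part followed with 4684040 to 4684949, which had a series-level score of 159.75, and scores of 2835.59 in replicate 1 and 1730.66 in replicate 2. Also in the left part were 451574 to 452784 (149.16), 5055068 to 5055824 (137.36) and 856849 to 857961 (128.73). The first of these reached 3100 in both replicates, and the last had unequal scores of 1612.19 in replicate 1 and 643.06 in replicate 2. In the right part, all 3 of the 10 highest lay within the last 2% of the chromosome: 15138262 to 15140412 (157.8), 14992895 to 14993850 (155.89) and 14991131 to 14991830 (143.57). The last pair started 1764 bp apart. Every one of the 10 met peaks of both replicates. Genes at these places are not given, since no annotation of build WS220 was used here.

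A replicate score of 3100 or more in both replicates was met by 10 regions of chromosome II, 4 in the left part, 2 in the centre and 4 in the right part. Their series-level scores spread from 72.31 to 182.48. A pair of them lay side by side in the left part, 1034077 to 1036518 (72.31) and 1037743 to 1039360 (97.25).

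Broad regions were few but covered much of the sequence. There were 56 regions of at least 1 kb (5.09%), against 5.57% of the whole list, and they held 25.3% of all bases covered on chromosome II. Of these, 50 met both replicates (89.3%, 95% Wilson interval 78.5 to 94.996%) and 0 met neither, which allows a share of up to 5.36% (3 of 56). Both replicates met 29.7% of all regions on the chromosome, but a wide region meets an overlap of 1 bp more easily. The same share for broad regions of the whole list is not given here. The left part held 12 broad regions, the centre 18 and the right part 26.

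The widest, 10541680 to 10553052 in the right part, spanned 11373 bp with a score of 74.43. In each replicate it was a single peak, of 11017 bp in replicate 1 and 11100 bp in replicate 2, with a score of 3100 in both. The region 693683 to 699177 in the left part (5495 bp, score 123.09) was also 1 peak of replicate 1, and a pair of adjacent peaks in replicate 2, all at 3100. The other 3 of the 5 widest were less even. In the centre, 5335440 to 5341320 (5881 bp, 40.65) was made of 4 peaks of replicate 1 and 3 of replicate 2, and 9617046 to 9622470 (5425 bp, 44.08) of 3 in each. Near the right end, 15038566 to 15043183 (4618 bp, 46.86) was 1 peak of 4608 bp with a score of 2924.32 in replicate 1, but 3 peaks of 782, 226 and 458 bp with scores up to 361.2 in replicate 2. Repeats, copy number and mappability at these places were not tested.

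Regions lay close together over most of the chromosome. The nearest region started a median of 1740 bp away (quartiles 744 and 5257 bp), and 819 regions (74.5%, 95% Wilson interval 71.8 to 76.9%) had a neighbour within 5 kb, against 72.8% of the whole list. In the left part the median distance was 2508 bp and 67.1% had such a neighbour (60.8 to 72.9%), in the centre 1894 bp and 74.5% (70.3 to 78.4%), and in the right part 1609 bp and 78.2% (74.1 to 81.9%). The left part held 27 of the 70 regions with no neighbour within 20 kb, which is 11.8% of its regions, against 4.32% in the centre and 5.56% in the right part. Spacing falls as density grows, so these values restate in part the smaller number of regions on the left.

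**Figure D5:**
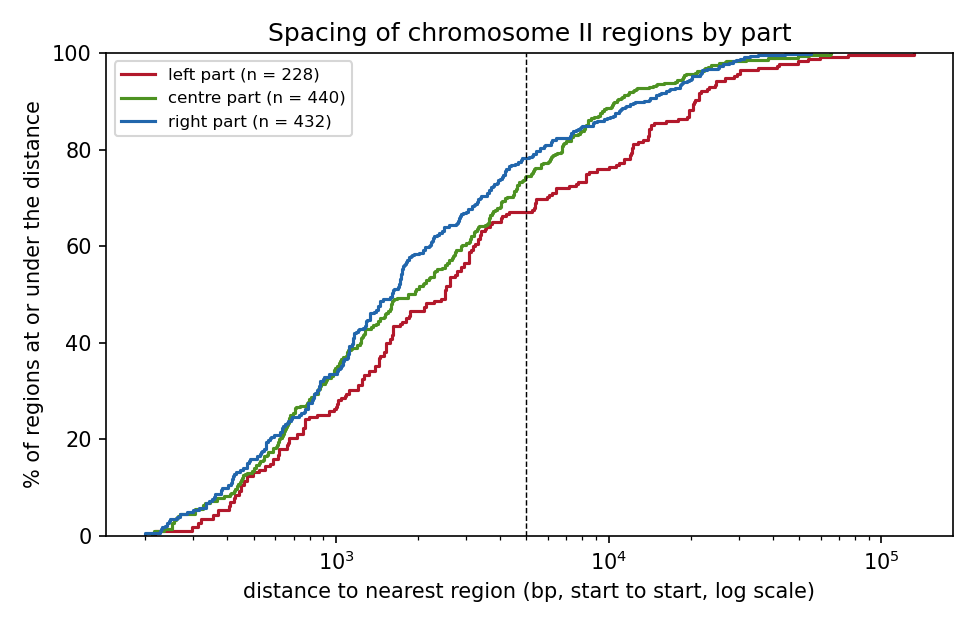
The curves give the percent of regions whose nearest neighbour on chromosome II starts at or under a distance in bp (log axis), for the left, centre and right part, with a dashed line at 5 kb. The curve of the left part lies lowest at 5 kb, at 67.1%, against 74.5% and 78.2%.

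All of the 5 longest gaps between neighbouring regions lay in the left part. They ran from 3119160 to 3303672 (185 kb), 1323541 to 1501048 (178 kb), 1502258 to 1661294 (159 kb), 2600326 to 2752571 (152 kb) and 2079668 to 2219967 (140.3 kb). A pair of regions less than 2 kb across in all separated the second from the third. Of 16 gaps of at least 100 kb, 13 were in the left part, 0 in the centre and 3 in the right part. In the replicate lists, 1 peak of replicate 1 lay wholly within the longest gap and 1 peak of each replicate within the fourth, and the other 3 gaps held 0 such peaks.

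At 3 places both replicates had a peak where the series-level list had no region. The first was the very left end of the chromosome, with peaks from base 1 to 458 in replicate 1 (score 251.71) and from base 1 to 451 in replicate 2 (254.91). Both scores lie above the median of their lists on II, 178 and 158. The first series-level region of II began at 18844, 18386 bp from the end of the peak of replicate 1. The second place, 2716799 to 2717092 in replicate 1 (116.72) and 2716833 to 2717037 in replicate 2 (255.95), lies within the fourth of the gaps above. The third, near 13649980, had scores of 65.81 and 71.79. Otherwise the list held nearly all replicate peaks, 406 of 412 of replicate 1 (98.5%) and 542 of 555 of replicate 2 (97.7%). At the right end, a region from 15262999 to 15263363 with a score of 13.95 met both replicates.

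With distances taken from start to start, regions in long runs had lower scores than regions on their own, and a smaller share met both replicates. When neighbours that start within 2 kb are put in a run, 517 regions stood alone, 427 were in 175 runs of 2 to 4, and 156 in 22 runs of 5 or more. A region's own width counts toward the distance to the region on its right. A region wider than 2 kb thus cannot join that region, however small the gap. The widest region, of 11373 bp, had its nearest start 11585 bp away. Wider regions scored higher and met both replicates more often, so this rule bears on the contrast of runs and lone regions. The median score was 5.83 in the long runs, 7.88 in the short ones and 8.89 for regions that stood alone. Both replicates met 20.5% of the regions in long runs (95% Wilson interval 14.9 to 27.5%), 30.0% in short ones (25.8 to 34.5%) and 32.3% of those that stood alone (28.4 to 36.5%). Shares met by neither replicate were close, with 46.2% in long runs, 43.6% in short ones and 46.6% of regions alone. In the highest decile by score, 47 of 110 regions had a neighbour within 2 kb (42.7%, 33.9 to 52.1%), against 54.1% of the other 990 (51.0 to 57.2%). The median width was 582.5 bp in the highest decile and 268.5 bp in the others. Since width is part of the distance, these shares do not show that strong regions have wider gaps around them. Scores and the division into regions come from the same calls, and no test was made of these differences.

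The longest run lay in the sparse left part, with 18 regions from 1140793 to 1153587. Their scores ran from 2.32 to 22.47, and they covered 70.2% of its 12795 bp. Support there was one-sided: 11 of the 18 met replicate 2 alone, 3 met both, 4 met neither and 0 met replicate 1 alone. The run met 10 peaks of replicate 2 and 3 of replicate 1, so some of these regions shared a peak. Next were 13 regions from 13279262 to 13291108 in the right part, of which 11 met neither replicate, and 11 from 14598359 to 14608881, of which 4 met replicate 1 alone and 0 met both. The run of 8 from 11972291 to 11980415 held a higher score, 61.41, and 3 of its regions met both replicates. In the centre, 7 regions from 7055708 to 7060503, the leftmost of several runs of that number, had scores of at most 12.26, and 2 of them met both.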

How the data were processed

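REC-8 ChIP was measured in 2 libraries, with 2 input libraries. Peak lists were used as deposited by the authors. Crosslinking was for 20 min in EGS and 10 min in EGS with formaldehyde, per the labels' protocols. BWA and ce10 are named in the submitters' processing notes. Positions, counted from 1, are those of build WS220 from WormBase, per the file headers. MACS (replicate lists) and MACS v2 (series-level list) are named in the files' source column. The caller's settings, its use of input and any pooling of replicates were not given in these sources. Each peak's value is a score that the authors deposited, on a scale not stated. Depth is unknown, and a deeper library can give a longer list.

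The last base of the rightmost peak over the 3 lists, 15263460, stood for the end of chromosome II, and midpoints decided the part. Distances are from start to start. No comparison had enough samples for an exact test to pass 0.05, so none was tested, and shares have 95% Wilson intervals. The regions, parts and lists of alternatives were chosen with earlier results of these data known. Named regions are the 10 highest scores, the 5 widest, the 5 longest gaps, the 5 longest runs and the extreme bins; others are said to be chosen after their values were seen, as were regions missing from the series-level list or at the tied score. Support, parts and distances were tested on 20 simulated sets. Regions in these sets started at least 5 kb apart and never shared a replicate peak, so close neighbours and shared peaks were not tried. Python 3.11.15, numpy 2.4.6, pandas 2.3.3 and matplotlib 3.10.9 were used.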

Additional observations from a re-analysis of the deposited data

How the results depend on the processing

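The left part held fewer regions than the right part under each alternative tried for their place, and the size of most other shares depended on the rule. With outer parts of 25% and a central part of 50% of the length, the left, central and right part held 13.5%, 55.9% and 30.5% of the regions. With regions at or above the series-level median score, the centre held 36.8%, and with the peak list of replicate 1 the centre held 36.2% and the right part 42.5%. The use of a replicate list and the omission of runs of 5 or more were added after the data were seen. At or above the median score, both replicates met 57.7% of the regions and at least 1 replicate met 87.1%. Both replicates met 53.8% in the left part, 58.6% in the centre and 58.9% in the right part. Of the left part's regions in this set, 41.9% were wider than the median width of the set itself, not of the chromosome. In the same set, 44.4%, 49.3% and 54.5% of the parts had a neighbour within 5 kb. With overlap of at least 50% of the region, 51.2% met at least 1 replicate. Without 1 replicate, overlap with the other ranged from 37.2 to 47.2% of all regions, from 37.7 to 44.3% in the left part, from 33.2 to 48.4% in the centre and from 41.0 to 47.5% in the right part. A neighbour within 2 kb was found for 46.5%, 51.1% and 58.3% of the parts, within 20 kb for 88.2%, 95.7% and 94.4%, and within 5 kb after joining regions less than 500 bp apart for 54.7%, 62.0% and 67.2%. The cause of these shifts was not tested. No paired analysis was possible because the input libraries, which share numbers with the ChIP libraries, had no list here. The parts of the chromosome, which share their libraries, were compared within each replicate and not tested. Depth is unknown, and binding below the lowest listed score cannot be seen.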
